A study of Mus musculus with 12 samples.

Results

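Replication-independent histone variant genes were examined in mouse round spermatids. They were taken as 10 named genes, and all 10 were present among the 28643 gene symbols used from the deposited expression table. They comprise 6 H2A variant genes (H2afx, H2afz, H2afv, H2afy, H2afy2 and H2afj), 2 H3 variant genes (H3f3a and H3f3b) and 2 linker histone variant genes (H1f0 and H1fx).

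Most histone mRNA is made in S phase from clustered genes without introns and ends in a stem-loop instead of a poly(A) tail. Replication-independent variants are expressed outside S phase, mostly as polyadenylated mRNAs, and are placed on chromatin by dedicated chaperones. Round spermatids no longer replicate DNA, and in the steps that follow most of their histones are replaced by transition proteins and then protamines.

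The spermatids were sorted by flow cytometry in cycloheximide, which holds ribosomes on mRNA, from 8-week-old males. The control group was heterozygous (Igf2bp3+/-) and the knockout group homozygous (Igf2bp3-/-) for a Cas9-made frameshift in Igf2bp3, which codes for an RNA-binding protein, so that by the genotype labels all animals carried at least 1 mutant allele. By the study's methods the mutation was made in zygotes and is not limited to a cell type, and knockout males with impaired fertility were the ones used. Both genotypes were measured by RNA-seq of total input RNA and by RNC-seq, the sequencing of mRNAs that carry 4 or more ribosomes, with 3 replicates in each of the 4 groups and 12 libraries in all.

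Positions are given on GRCm38 with the GENCODE M21 annotation. H3f3a (chr1:180800832-180813943, minus strand, 4 exons in its longest coding transcript) and H3f3b (chr11:116021912-116027962, minus strand, 6 exons) code for the same H3.3 protein. Over their 411 coding bases the transcripts differed at 95 positions, 81 of them at the third base of a codon, and the longest identical run was 23 bases. Coding bases 130 to 159, the 30-base stretch with most differences (10), are shown because reads from the paralogs are told apart by such positions, with capitals where the transcripts differ. The H3f3a stretch lies at chr1:180810240-180810269 and the H3f3b stretch at chr11:116023748-116023777, both in 1 coding exon on the minus strand.
H3f3a: ccTggTacTgtggcCctCCgTgaAatcAgA
H3f3b: ccAggGacCgtggcTctGAgAgaGatcCgT

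H2afz (chr3:137864487-137866922, plus strand, 5 exons) and H2afv (chr11:6427229-6444443, minus strand, 5 exons) code for the nearly identical proteins H2A.Z.1 and H2A.Z.2. Their 387 coding bases differed at 81 positions, 70 of them at the third base of a codon. Coding bases 94 to 123, again with capitals at the 10 differences, lie within 1 exon at chr3:137865532-137865561 on the plus strand for H2afz and at chr11:6433796-6433825 on the minus strand for H2afv.
H2afz: cgTatTcaTCgacacCtgaaATctAgGacA
H2afv: cgCatCcaCAgacacTtgaaGActCgCacC

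H2afx (chr9:44334694-44336077, plus strand, 1 exon) codes for H2A.X, the variant that is phosphorylated at DNA breaks and on the sex chromosomes in meiosis. Among the 10 genes only H2afx held the stem-loop of replication-dependent histone mRNA, searched on the transcript strand as the 16 bases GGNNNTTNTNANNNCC with 6-base stems that pair. It lies in the 3′ UTR, 47 bases after the stop codon, at chr9:44335240-44335255, and the annotated transcript of 1384 bases goes on beyond it. The same search found it in 79 of 55341 annotated genes (0.143%) and in 46 of 70 clustered histone genes (65.7%). Capitals mark the stems.
H2afx stem-loop: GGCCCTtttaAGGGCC
The libraries were poly(A)-selected, so values of H2afx and of clustered histones concern polyadenylated transcripts.

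The remaining genes are H2afy (chr13:56073619-56136361, 9 exons) and H2afy2 (chr10:61738665-61784147, 9 exons), which code for macroH2A1 and macroH2A2, H2A variants with a large C-terminal domain. H2afj (chr6:136808244-136810074) codes for H2A.J, H1f0 (chr15:79028450-79030504) for the linker histone H1.0 of resting and differentiated cells, and H1fx (chr6:87980421-87981637) for the linker histone H1.10; each has 1 exon. Several values are uncertain because other genes share sequence. H3f3a had 14 annotated copies with at least 95% identity over at least 90% of its coding bases, whose mean FPKM summed to 70.1 beside its own 290.9. H3f3b had 1 copy, Gm37486, at 27.8 FPKM beside its own 278.4, H2afy2 had 1, H2afy3, at 7.10 FPKM beside its own 1.01, and H2afz had 2 in the table that summed to 17.2 FPKM beside its own 256.6. Overlap with a gene on the opposite strand covered 22.8% of the exonic bases of H3f3a, 17.5% of H1fx, 10.7% of H2afy2, 10.2% of H2afx and between 7.36% and 7.93% of H2afy, H2afj and H1f0, and strand use in the quantification is not stated.

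In the series as a whole, the number of genes above 0 FPKM was 23554 to 25633 in RNA-seq and 21490 to 22797 in RNC-seq. The highest symbol, CT010467.1, made up 15.9% to 19.4% of summed FPKM in Igf2bp3+/- RNC-seq. In Igf2bp3-/- RNC-seq it made up 8.14%, 11.5% and 14.6% in replicates 1, 2 and 3. In RNA-seq it made up 9.22% to 13.3% in Igf2bp3+/- and 5.68% to 9.25% in Igf2bp3-/-. Its part in the scaling of the libraries was not tested. Read depth is not given; relative depth read from the lowest values was 1 in Igf2bp3-/- RNA-seq replicate 1 and 0.380 to 0.550 elsewhere, so no counting interval can be given for the low genes H1f0, H1fx and H2afy2. Igf2bp3 itself read 33.4 to 38.6 FPKM in Igf2bp3+/- and 31.4 to 32.5 FPKM in Igf2bp3-/- RNA-seq, and its transcript level does not test a frameshift. Spermatid markers were abundant, with Prm1 between 1959 and 7458 FPKM and Acr between 181 and 385 FPKM. A list of 6 spermatocyte genes summed to 71.4 to 108.5 FPKM in RNA-seq and 83.9 to 199.4 FPKM in RNC-seq, and 7 spermatogonia genes to 7.41 to 10.4 FPKM. Markers of somatic testis cells and blood are given with the genotype results.

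FPKM is scaled for transcript length, so the levels of different genes can be set side by side. H3f3a, H2afz and H3f3b were the most abundant of the 10 transcripts. Mean RNA-seq levels in Igf2bp3+/- were 161 ± 16.2 FPKM for H3f3a, 144 ± 15.7 FPKM for H2afz and 117 ± 16.1 FPKM for H3f3b (SD, n = 3 each). These 3 genes overlapped as neighbours in the order of levels in all 4 groups. H2afx (24.8 ± 0.337 FPKM) and H2afy (23.6 ± 2.31 FPKM) came next and overlapped everywhere except in Igf2bp3+/- RNC-seq, where H2afx was higher in every library. H2afv (3.73 ± 0.232 FPKM) and H2afj (2.30 ± 0.192 FPKM) followed without overlap. H1fx (1.49 ± 0.249 FPKM) and H2afy2 (1.32 ± 0.318 FPKM) overlapped in all groups, and H1f0 (0.370 ± 0.0488 FPKM) was the lowest member in RNA-seq. The H2A.Z pool was thus mainly H2afz, of which H2afv made up 2.54 ± 0.154% in Igf2bp3+/- RNA-seq, whereas the H3.3 genes contributed comparable amounts.

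**Figure D1:**
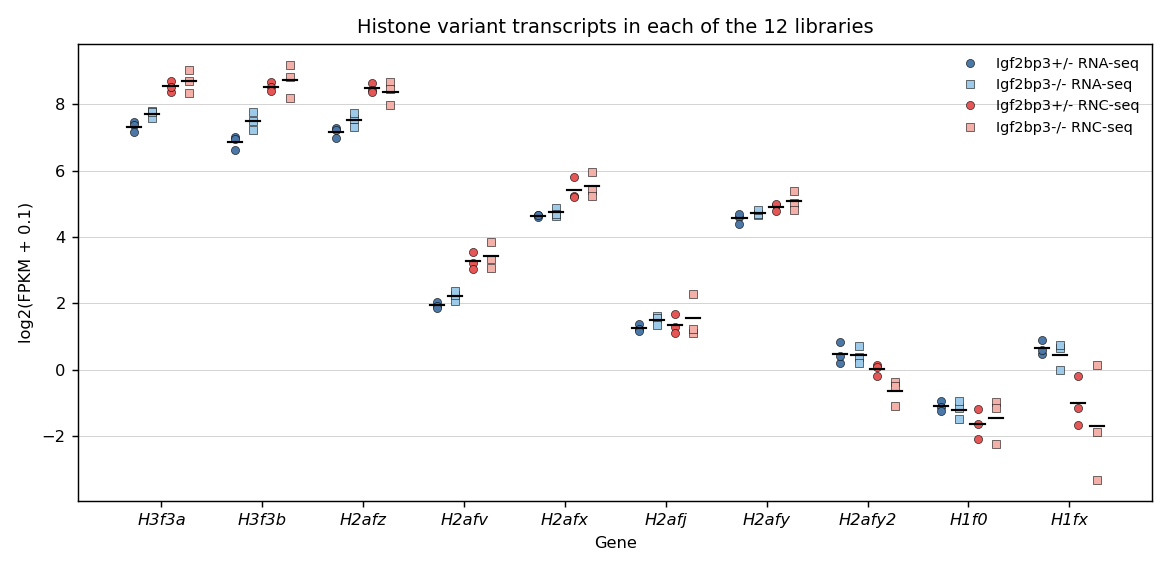
Levels of the 10 histone variant transcripts as log2(FPKM + 0.1) (vertical axis, no bar) for each gene (horizontal axis). Each point is 1 of 12 libraries, circles Igf2bp3+/- and squares Igf2bp3-/-, blue RNA-seq and red RNC-seq, and short lines are the means of 3 log2 values. H3f3a, H3f3b, H2afz, H2afv and H2afx have every RNC-seq point above every RNA-seq point of the same genotype.

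RNC-seq was set against RNA-seq to ask which of these mRNAs were over- or under-represented among transcripts with 4 or more ribosomes. In Igf2bp3+/- spermatids the H3.3, H2A.Z and H2A.X transcripts rose in the polysome fraction and the linker histone transcript H1fx fell. Of the 10 genes, 5 were higher in RNC-seq at an adjusted p under 0.05, beside 18.6% of all 17942 genes tested, and 1 was lower, beside 25.1%. The median log2 difference was 0.56 over the 10 genes and -0.09 over all genes. The share of all genes depends on low genes. Among 11138 genes with a mean above 1 FPKM in both assays, 3051 were higher and 3145 lower, beside 5 and 0 of the 7 members tested. After median centring of the libraries the all-gene median was 0.07, and the split of all genes called went from 3331 higher and 4503 lower to 4630 higher and 3655 lower. Under that centring 7 of the 10 genes passed, H2afy being added at a log2 difference of 0.51. With quantile normalization 6 passed, without H2afy. Summed FPKM was 459762 to 509397 in RNA-seq and 555464 to 624792 in RNC-seq over both genotypes. Scaling to these sums would shift every log2 difference downwards, so positive differences would shrink and negative ones would grow in size. Such scaling was not tested.

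Among the H3.3 genes, H3f3b was the member with the largest difference in Igf2bp3+/-. Its RNA-seq values were 128, 124 and 98.7 FPKM and its RNC-seq values 403, 367 and 340 FPKM. Every RNC-seq library was above every RNA-seq library, and the log2 difference was 1.66 ± 0.14 (SE; limma, adjusted p = 7.41e-05). H3f3a read 175, 165 and 143 FPKM in RNA-seq and 419, 330 and 368 FPKM in RNC-seq. The groups again did not overlap, with a log2 difference of 1.21 ± 0.13 (limma, adjusted p = 0.00024).

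Both H2A.Z genes rose, at levels that lay far apart. H2afz read 156, 149 and 126 FPKM in RNA-seq and 402, 342 and 329 FPKM in RNC-seq, a log2 difference of 1.31 ± 0.13 (limma, adjusted p = 0.000163). H2afv read 3.98, 3.70 and 3.52 FPKM in RNA-seq and 9.11, 11.7 and 8.14 FPKM in RNC-seq, a log2 difference of 1.33 ± 0.17 (limma, adjusted p = 0.000513). Neither gene had overlapping groups. H2afx read 24.99, 24.43 and 25.03 FPKM in RNA-seq and 37.9, 55.7 and 36.8 FPKM in RNC-seq, where replicate 2 stood above the others. Its log2 difference was 0.78 ± 0.17 (limma, adjusted p = 0.00603).

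The macroH2A genes did not pass the test in Igf2bp3+/-. H2afy read 24.1, 25.6 and 21.1 FPKM in RNA-seq and 31.0, 31.8 and 27.3 FPKM in RNC-seq. The RNC-seq libraries all lay above the RNA-seq libraries, by 0.35 ± 0.13 on the log2 scale (limma, adjusted p = 0.0613). H2afy2 read 1.67, 1.06 and 1.22 FPKM in RNA-seq and 0.995, 0.774 and 0.964 FPKM in RNC-seq, with every RNC-seq library below (log2 difference -0.47 ± 0.24; limma, adjusted p = 0.148). H2afj overlapped between the assays, at 2.13 to 2.51 FPKM in RNA-seq and 2.06 to 3.12 FPKM in RNC-seq.

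Of the linker histone genes, H1fx read 1.77, 1.297 and 1.40 FPKM in RNA-seq and 0.216, 0.778 and 0.348 FPKM in RNC-seq. All 3 RNC-seq libraries were below the RNA-seq libraries, and the log2 difference was -1.66 ± 0.37 (limma, adjusted p = 0.007). That call was lost without Igf2bp3+/- replicate 1 (log2 difference -1.21, adjusted p = 0.0614) or replicate 3 (-1.62, adjusted p = 0.063; limma). H1f0 was at 0.325 to 0.422 FPKM in RNA-seq and 0.136 to 0.341 FPKM in RNC-seq and did not pass.

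In Igf2bp3-/- spermatids the same 5 genes were higher in RNC-seq, and H2afy2 was lower. These were 5 genes of 10 beside 10.1% of all 18456 genes tested that were higher, and 1 of 10 beside 10.9% that were lower. The median log2 difference was 0.58 over the 10 genes and -0.04 over all genes. Among 11546 genes with a mean above 1 FPKM in both assays, 1945 were higher and 1587 lower, beside 5 and 0 of the 7 members tested. All 6 calls depended on 2 replicates: without Igf2bp3-/- replicate 1, 0 of the 10 genes and 3 of all genes passed limma's adjusted limit (4219 of all genes at an unadjusted p under 0.05), and without replicate 3, 0 of the 10 and 1 of all genes passed (4493 unadjusted). The 6 differences kept their sign in both cases.

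H3f3b read 150, 179 and 219 FPKM in Igf2bp3-/- RNA-seq and 584, 293 and 455 FPKM in RNC-seq, a log2 difference of 1.24 ± 0.26 (limma, adjusted p = 0.0113). H3f3a read 192, 220.1 and 217 FPKM in RNA-seq and 523, 320.4 and 419 FPKM in RNC-seq, a log2 difference of 0.98 ± 0.20 (limma, adjusted p = 0.0105). In RNC-seq both H3.3 genes were lowest in replicate 2 and highest in replicate 1. H2afz read 159, 188 and 213 FPKM in RNA-seq and 409, 254 and 352 FPKM in RNC-seq, a log2 difference of 0.84 ± 0.21 (limma, adjusted p = 0.0214). H2afv read 4.13, 4.63 and 5.05 FPKM in RNA-seq and 14.3, 8.35 and 9.92 FPKM in RNC-seq, a log2 difference of 1.19 ± 0.22 (limma, adjusted p = 0.00811). None of these 4 genes had overlapping groups, and all had their lowest RNC-seq value in replicate 2.

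H2afx in Igf2bp3-/- read 24.8, 29.4 and 26.0 FPKM in RNA-seq and 62.7, 43.0 and 37.9 FPKM in RNC-seq, a log2 difference of 0.81 ± 0.21 (limma, adjusted p = 0.0242). H2afy2 read 1.19, 1.06 and 1.54 FPKM in RNA-seq and 0.680, 0.616 and 0.366 FPKM in RNC-seq, a log2 difference of -1.08 ± 0.29 (limma, adjusted p = 0.0285). The H2afy2 groups did not overlap, but the gene is low and its near-identical copy H2afy3 was several times higher. H1fx read 1.46, 1.57 and 0.894 FPKM in RNA-seq and 0.997 and 0.175 FPKM in RNC-seq replicates 1 and 3, and it was listed at 0 in replicate 2. Its log2 difference of -2.14 ± 0.71 did not pass (limma, adjusted p = 0.0593), and neither did H2afy (0.35 ± 0.19), H2afj (0.04 ± 0.31) or H1f0 (-0.26 ± 0.40).

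**Figure D2:**
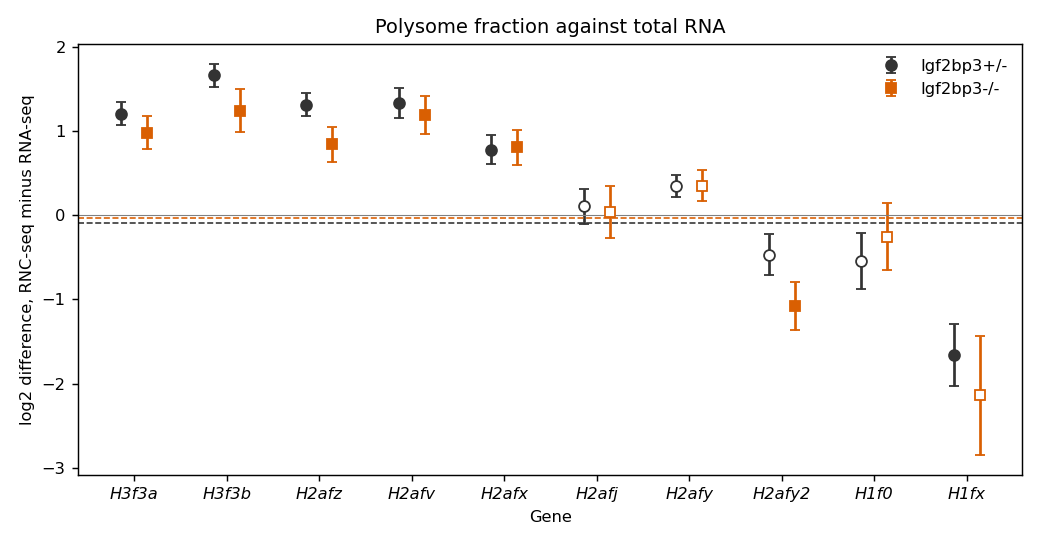
Difference between RNC-seq and RNA-seq on the log2(FPKM + 0.1) scale (vertical axis) for each gene (horizontal axis), black circles Igf2bp3+/- and orange squares Igf2bp3-/-, with bars of 1 SE. Filled symbols passed an adjusted p of 0.05 in limma and open symbols did not; dashed lines are the medians over all genes tested, -0.09 and -0.04. H3f3a, H3f3b, H2afz, H2afv and H2afx lie above 0 and filled in both genotypes.

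Transcript length moved with these differences. When a smooth trend of each library on the length of the longest annotated transcript was removed, a step added after the data had been seen, 7 genes passed in Igf2bp3+/- and 8 in Igf2bp3-/-. H2afy joined in both (log2 differences 0.79 and 0.64), H1fx joined in Igf2bp3-/- (-2.37), and H2afx was at 0.58 in Igf2bp3+/-. As a ratio of mean FPKM in RNC-seq to that in RNA-seq, the study's measure of translational efficiency (TE), the H3.3 and H2A.Z genes stood at 2.31 to 3.16 in Igf2bp3+/- and 1.81 to 2.43 in Igf2bp3-/-. H2afx was at 1.75 and 1.79, H2afy at 1.27 and 1.29, and H2afy2 at 0.691 and 0.439.

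Paralogs of the same histone class were compared within each library, which removes any factor common to a library. The coding bases of H1fx and H1f0 differ in length and were not aligned. Factors of a single gene remain, such as the copies of H3f3a and H2afy2 and the opposite-strand overlap given above. The ratios were not run with the length trend removed. The ratio of H3f3b to H3f3a was higher in RNC-seq than in RNA-seq. In Igf2bp3+/- the H3f3b share of the summed H3.3 transcripts was 42.4%, 43.0% and 40.8% in RNA-seq and 49.0%, 52.6% and 48.0% in RNC-seq, without overlap. In Igf2bp3-/- the share was 43.9%, 44.9% and 50.2% in RNA-seq and 52.8%, 47.7% and 52.1% in RNC-seq, where the assays overlapped. Over both genotypes the log2 ratio was 0.02 ± 0.14 in RNC-seq and -0.34 ± 0.19 in RNA-seq (SD, n = 6 each), a difference of 0.36 (two-sided exact permutation test, p = 0.00866, adjusted over 4 pairs p = 0.0173). The adjusted p was 0.0635 without Igf2bp3+/- replicate 2, where the difference was 0.32, and 0.0529 without Igf2bp3-/- replicate 1, where it was 0.33 (exact permutation tests). With the replicate number as a block, the ratio was higher in RNC-seq in 6 of 6 same-numbered pairs, and the adjusted exact permutation p was 0.0625.

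Among the macroH2A genes, the H2afy2 share was lower in RNC-seq. In RNA-seq, H2afy2 made up 5.31 ± 1.27% of both transcripts in Igf2bp3+/- and 4.54 ± 0.625% in Igf2bp3-/-. In RNC-seq it made up 2.96 ± 0.529% and 1.58 ± 0.288% (SD, n = 3 each). The log2 ratio of H2afy2 to H2afy differed by -1.12 between RNC-seq and RNA-seq, with no overlap over 6 against 6 libraries (exact permutation p = 0.00216, the smallest that this design gives, adjusted p = 0.00866). With the replicate number as a block the ratio was lower in all 6 pairs, and the adjusted exact permutation p was again 0.0625. The difference was -0.74 with a pseudocount of 1 and -1.21 with a pseudocount of 0.01. H2afy2 is low, and its copy H2afy3 was higher. H2afv against H2afz differed by 0.18 (exact permutation p = 0.132) and H1fx against H1f0 by -1.5 (exact permutation p = 0.0563, adjusted p = 0.075). By the methods RNA-seq and RNC-seq of an animal come from the same extract, so the 12 libraries are not fully independent. In the unblocked tests between assays, libraries were exchanged across genotypes and extracts.

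**Figure D3:**
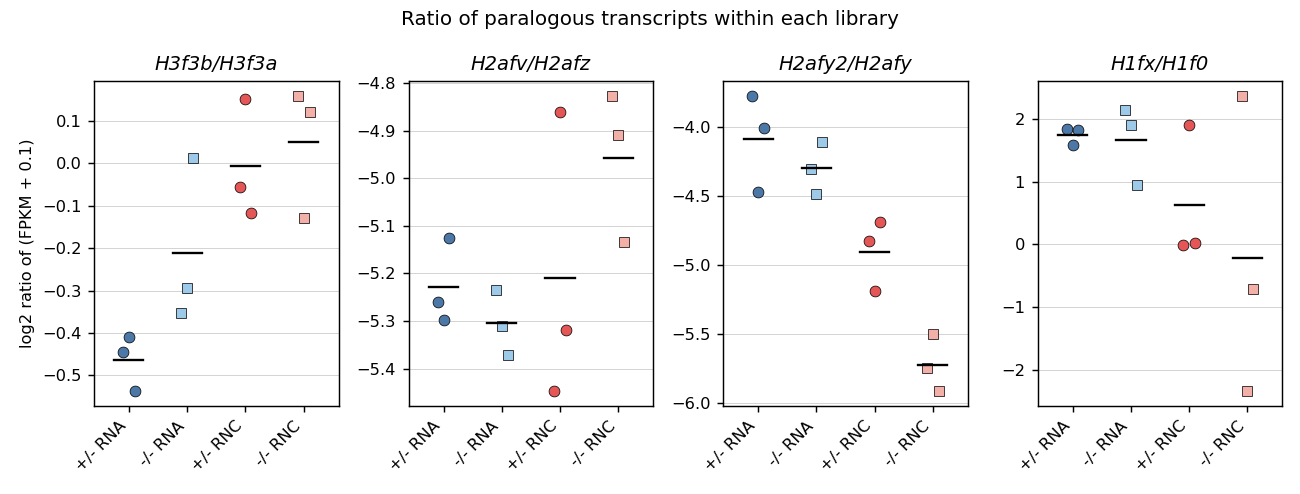
Log2 ratio of (FPKM + 0.1) of paralogous transcripts within each library (vertical axes, which differ between panels) for H3f3b/H3f3a, H2afv/H2afz, H2afy2/H2afy and H1fx/H1f0, by group (horizontal axes). Points are the 3 libraries of a group and lines their means; the H2afy2/H2afy points of RNC-seq (-5.91 to -4.69) all lie below those of RNA-seq (-4.48 to -3.77).

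The genotypes were compared in RNA-seq to ask whether transcript abundance changed with loss of Igf2bp3. None of the 10 genes passed limma's adjusted limit, beside 0.256% of all 20352 genes, and 3 had an unadjusted p under 0.05, beside 15.7%. These 3 were the most abundant members and were higher in Igf2bp3-/-. H3f3b, with the values given above, had a log2 change of 0.63 ± 0.15 (limma, adjusted p = 0.163). At the limits in a legend of the study's supplement, a change of more than 1.5-fold and a p under 0.05 before adjustment, it was the 1 member called by limma, beside 5.45% of all genes. H3f3a had 0.38 ± 0.10 (limma, adjusted p = 0.182) and H2afz 0.37 ± 0.13 (limma, adjusted p = 0.240).

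H3f3a, H3f3b, H2afz and H2afv had every Igf2bp3-/- RNA-seq library above every Igf2bp3+/- library, 4 of 10 genes beside 14.1% of all genes. The separation was narrow for H2afz, whose lowest Igf2bp3-/- library was at 159 FPKM and whose highest Igf2bp3+/- library was at 156 FPKM. It was wider for H3f3b, at 150 and 128 FPKM. The median log2 change was 0.21 over the 10 genes and 0.05 over all genes. H2afv (0.29 ± 0.13), H2afj (0.25 ± 0.15), H2afy (0.17 ± 0.10) and H2afx (0.10 ± 0.10) had positive values, and H2afy2 (-0.05 ± 0.22), H1f0 (-0.11 ± 0.26) and H1fx (-0.20 ± 0.24) negative ones, all with an unadjusted p above 0.05.

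Markers of other cells moved with genotype in the same libraries. The summed FPKM of 8 Leydig cell genes was 15.4 to 22.6 in Igf2bp3+/- and 48.7 to 55.2 in Igf2bp3-/- RNA-seq, with 4 of 7 tested genes past the limit and all 7 at positive log2 changes, and Hsd17b3 was listed at 0 in all 3 Igf2bp3+/- libraries. The sum of 8 blood and macrophage genes was 9.58 to 10.8 against 18.4 to 20.2 FPKM (2 of 8 past the limit), and that of 7 Sertoli cell genes 3.76 to 4.58 against 7.27 to 8.05 FPKM (1 of 5 tested). The Sertoli gene that passed was Clu, with a log2 change of 1.08 ± 0.14 (limma, adjusted p = 0.0201), while Rhox5 (-0.81) and Aard (-0.29) had negative values. Peritubular cell genes summed to 1.55 to 1.73 against 1.05 to 1.60 FPKM, with 0 of 4 tested past the limit. The sum of 7 round spermatid genes was also higher, 749 to 868 against 979 to 1145 FPKM, with 0 of 7 past the limit and 5 at an unadjusted p under 0.05 (limma). The part of these markers in the histone variant values was not tested. In bulk samples, fewer cells of a type and less RNA per cell cannot be told apart.

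In RNC-seq, 0 of the 10 genes passed limma's adjusted limit, beside 0.115% of all 19051 genes, and 0 had an unadjusted p under 0.05, beside 6.48%. H3f3b (0.21 ± 0.25), H3f3a (0.15 ± 0.22) and H2afz (-0.10 ± 0.22) had log2 changes within 1 SE of 0. Only H2afy2 separated the genotypes, with its Igf2bp3-/- RNC-seq libraries (0.366 to 0.680 FPKM) below its Igf2bp3+/- libraries (0.774 to 0.995 FPKM), 1 of 10 genes beside 1.85% of all genes. Its log2 change was -0.66 ± 0.33 (limma, adjusted p = 0.777). The median over the 10 genes was 0.15 and over all genes 0.13; centring libraries on their medians moved the latter to 0.01 and the split of all genes called from 15 higher and 7 lower to 6 higher and 7 lower. Igf2bp3-/- RNC-seq replicate 1 was the highest of its group for every member except H1f0, and without it H3f3a and H3f3b stood at -0.02 each, while 0 of all genes passed (990 at an unadjusted p under 0.05). Leydig markers summed to 6.82 to 14.3 FPKM in Igf2bp3+/- and 51.5 to 102.9 FPKM in Igf2bp3-/- RNC-seq.

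Whether the polysome share of a transcript differed between genotypes was tested as the interaction of genotype and assay. None of the 10 genes passed limma's adjusted limit, beside 0.00543% of 18414 genes (1 gene), and 0 had an unadjusted p under 0.05, beside 7.13%. The differences between the genotypes in the RNC-seq over RNA-seq contrast, with a call in one genotype and not in the other for H1fx and H2afy2, were therefore not shown to be differences. H2afz had the smallest p-value among the members, with a log2 change in TE of -0.47 ± 0.25 (limma, adjusted p = 0.716). H2afy2 stood at -0.61 ± 0.37, H3f3b at -0.42 ± 0.31, H3f3a at -0.23 ± 0.24 and H1fx at -0.48 ± 0.90. H2afx (0.03 ± 0.28) and H2afy (0.00 ± 0.22) lay near 0 and turned negative, to -0.10 and -0.13, when libraries were centred on their medians, which moved the median of all genes from 0.06 to -0.07. The comparisons share libraries, the RNA-seq values entering both the genotype and the TE results.

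**Figure D4:**
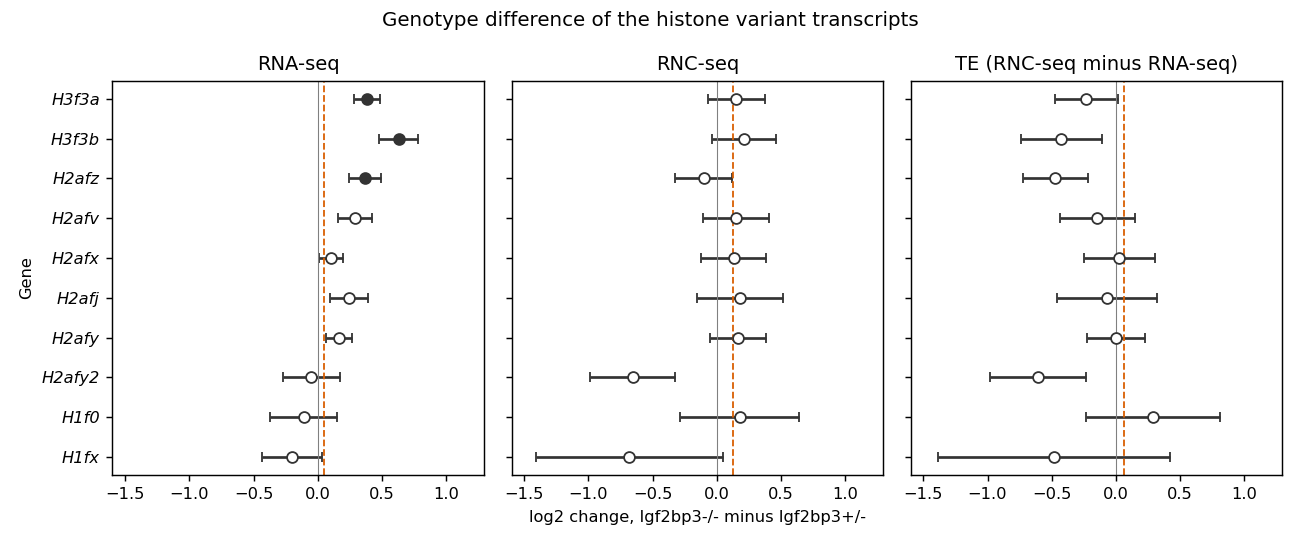
Difference between Igf2bp3-/- and Igf2bp3+/- on the log2(FPKM + 0.1) scale (horizontal axis) for each gene (vertical axis) in RNA-seq, RNC-seq and TE, with bars of 1 SE. Filled points had an unadjusted p under 0.05 and open points did not, none passed after adjustment in limma, and dashed lines are the medians over all genes (0.05, 0.13 and 0.06). H3f3a, H3f3b and H2afz are the filled points, in RNA-seq.

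In 2 cases the ratio of paralogs did not overlap between genotypes, at the smallest p that 3 against 3 libraries can give, 0.1, so that this design cannot pass 0.05. In RNA-seq the log2 ratio of H3f3b to H3f3a was -0.21 ± 0.20 for Igf2bp3-/- against -0.46 ± 0.07 for the control (SD, n = 3 each; exact permutation p = 0.1, adjusted over 4 pairs p = 0.4). Without Igf2bp3-/- replicate 3 the difference of 0.25 was 0.14. In RNC-seq the log2 ratio of H2afy2 to H2afy was -5.72 ± 0.21 against -4.90 ± 0.26 (exact permutation p = 0.1, adjusted p = 0.4).

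Histone chaperones and remodellers, among them factors that place or remove these variants and general ones such as Chaf1a and Nasp, were read as a list of 29 genes. None passed limma's adjusted limit between genotypes in RNA-seq (unadjusted p under 0.05 in 5 that were higher and 3 that were lower, median log2 change 0.02), in RNC-seq (27 tested, 0 unadjusted, median 0.14) or in TE (3 and 1 unadjusted, median 0.02). Over all genes 15.7%, 6.48% and 7.13% had an unadjusted p under 0.05. In Igf2bp3+/- 15 of 27 tested were lower in RNC-seq and 4 higher, with a median log2 difference of -0.61. In Igf2bp3-/- 10 were lower and 1 higher, with a median of -0.40. The dependence on Igf2bp3-/- replicates 1 and 3 given above applies to the latter. Over all genes 25.1% were lower and 18.6% higher in Igf2bp3+/- (median -0.09). In Igf2bp3-/- these shares were 10.9% and 10.1% (median -0.04). The list was not read with the length trend removed.

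Daxx, the H3.3 chaperone that works with Atrx at heterochromatin, was abundant. It read 63.8, 69.0 and 76.6 FPKM in Igf2bp3+/- RNA-seq and 44.0, 51.6 and 52.3 FPKM in RNC-seq, a log2 difference of -0.50 ± 0.13 (limma, adjusted p = 0.0129). In Igf2bp3-/- it read 68.3, 76.2 and 84.0 FPKM in RNA-seq and 77.3, 66.1 and 47.3 FPKM in RNC-seq, where the assays overlapped and the log2 difference of -0.28 ± 0.20 did not pass (limma, adjusted p = 0.352). Its log2 change in TE, 0.22 ± 0.25, did not pass either (limma, adjusted p = 0.833). Hira, which places H3.3 at active genes, stayed between 0.0661 and 0.371 FPKM in the 12 libraries, and its log2 change between genotypes in RNA-seq was -0.02 ± 0.40. Atrx was at most 0.324 FPKM and was listed at 0 in 2 Igf2bp3+/- RNC-seq libraries, with a log2 change of -0.84 ± 0.50 in RNA-seq (limma, adjusted p = 0.453). Of these 3 genes Daxx was the only one above 1 FPKM in any library.

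Srcap, the remodeller that puts H2A.Z into nucleosomes, read 8.14, 10.1 and 10.7 FPKM in Igf2bp3+/- RNA-seq and 0.556, 1.28 and 1.18 FPKM in RNC-seq, a log2 difference of -3.20 ± 0.29 (limma, adjusted p = 0.000107). In Igf2bp3-/- it read 7.66, 8.80 and 6.21 FPKM in RNA-seq and 1.42, 3.24 and 1.21 FPKM in RNC-seq, a log2 difference of -2.01 ± 0.34 (limma, adjusted p = 0.00547). Srcap mRNA was thus lower in the polysome fraction where H2afz mRNA was higher. Removing the length trend took the genes called lower in Igf2bp3+/- from 4503 of 17942 to 3264 of 17482. Srcap was not read with that trend removed. Between genotypes Srcap had a log2 change of -0.35 ± 0.16 in RNA-seq and 1.19 ± 0.48 in TE (limma, adjusted p = 0.332 and 0.686). Anp32e, which removes H2A.Z, was at most 0.213 FPKM.

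Genes linked to the phosphorylation of H2A.X or to its reading were a list of 13, which included Atm, Atr, Mdc1 and Eya3. None passed between genotypes in RNA-seq (limma's unadjusted p under 0.05 in 1 that was higher and 2 that were lower), RNC-seq (1 and 0 of 12) or TE (2 and 0 of 12, median log2 change 0.39). The shares of all genes at that unadjusted limit were 15.7%, 6.48% and 7.13%. In RNC-seq against RNA-seq of Igf2bp3+/-, 9 of 12 were lower and 0 higher (median -1.58), beside 25.1% and 18.6% of all genes (median -0.09). In Igf2bp3-/- 6 were lower and 0 higher (median -0.91), beside 10.9% and 10.1% (median -0.04). H2afx itself was higher in both genotypes. The list was likewise not read with the length trend removed.

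Testis-specific histone variants and clustered histones were set beside the 10 genes. Many of the testis-specific genes belong to a single family, H2al1. Sequence shared within either list was not examined, so the genes counted may not be separate measurements. In Igf2bp3+/-, 12 of 20 testis-specific genes tested were higher in RNC-seq and 2 lower (median 1.07), as were 10 and 1 of 25 clustered genes (median 1.00). In Igf2bp3-/- the counts were 10 and 0 of 20 (median 0.91) and 11 and 1 of 31 (median 0.61). Over all genes 18.6% were higher and 25.1% lower in Igf2bp3+/- (median -0.09). In Igf2bp3-/- these shares were 10.1% and 10.9% (median -0.04). The 2 most abundant testis-specific genes went opposite ways in Igf2bp3+/-. H1fnt, a spermatid linker histone, read 557, 607 and 575 FPKM in RNA-seq and 193, 256 and 218 FPKM in RNC-seq (log2 difference -1.39 ± 0.13; limma, adjusted p = 0.000122). Hils1, another spermatid linker histone, read 459, 468 and 416 FPKM in RNA-seq and 935, 738 and 828 FPKM in RNC-seq (0.89 ± 0.13; limma, adjusted p = 0.000722). In Igf2bp3-/- H1fnt read 551, 594 and 628 FPKM in RNA-seq and 563, 368 and 218 FPKM in RNC-seq, with overlap, and did not pass (-0.73 ± 0.30; limma, adjusted p = 0.109). Hils1 there read 479.7, 511 and 529 FPKM in RNA-seq and 882, 667 and 987 FPKM in RNC-seq, without overlap (0.72 ± 0.18; limma, adjusted p = 0.0238). Neither gene passed in TE. The 3 most abundant clustered genes were all higher in RNC-seq of Igf2bp3+/-, Hist1h2bp by 1.26 ± 0.17, Hist1h4a by 1.39 ± 0.18 and Hist1h3a by 0.59 ± 0.15 on the log2 scale (limma, adjusted p = 0.000537, 0.000467 and 0.0137).

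No testis-specific or clustered histone gene passed between genotypes in RNA-seq, RNC-seq or TE (limma). At an unadjusted p under 0.05 the testis-specific list (20, 22 and 20 tested) had 1, 2 and 0 genes higher and 0 lower in each. The clustered list (33, 40 and 32 tested) had 4, 3 and 2 higher and 2, 0 and 0 lower. Over all genes the shares at this limit, in both directions, were 15.7%, 6.48% and 7.13%. Summed over the 10 replication-independent genes the RNA-seq level was 423 to 519 FPKM in Igf2bp3+/- and 561 to 714 FPKM in Igf2bp3-/-, and 1113 to 1306 against 954 to 1641 FPKM in RNC-seq. Testis-specific variants summed to 1333 to 1596 against 1511 to 1657 FPKM in RNA-seq, so that they outweighed the replication-independent genes in every RNA-seq library.

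The genes whose log2 levels followed a member most closely over the 12 libraries were read by Pearson's r, as a description in which the difference between assays is shared by all points. H2afz was followed most closely by Phpt1 (r = 0.994), Ndufb6 (r = 0.994) and Ska1 (r = 0.993), and H3f3a by Gm6890 (r = 0.996), 1700120B22Rik (r = 0.994) and Ppia (r = 0.994). Among the 10 genes, H3f3a and H3f3b had r = 0.989 and H2afz and H3f3a r = 0.981. H2afy2 ran against H3f3a, with r = -0.708, and H2afj was weakly related, with r = 0.336. H1fx, the higher of the linker histone genes, had a mean under 1 FPKM and was not read this way.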

How the data were processed

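RNA-seq and RNC-seq of sorted round spermatids gave 12 libraries, grouped by the genotype and assay in their labels. The deposited columns and descriptions of the control libraries are named WT, whereas their titles and genotype labels give Igf2bp3+/-, which is used here. The authors deposited 1 table of FPKM (fragments scaled for transcript length and mapped reads) per gene symbol; by the study's methods they trimmed reads with Trim Galore 0.6.6, aligned them to GRCm38 with Hisat2 and quantified them with StringTie 2.1.7. The annotation release and strand use are not given in the sources used here, and labels and methods name different library kits and instruments. Of 28668 symbols, 25 had turned into dates (0.0995% of summed FPKM) and were left out; 27839 matched GENCODE M21. The file gives no read counts, so depth is relative.

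Values were analysed as log2(FPKM + 0.1), which understates changes of low genes, with limma 3.58.1 in R 4.3.3 (intensity trend, two-sided, Benjamini-Hochberg adjustment over all genes, limit 0.05), among genes with a mean FPKM above 0.1, in both assays where both entered. Each genotype comparison used the 6 libraries of an assay, RNC-seq against RNA-seq the 6 of a genotype, and the TE comparison the interaction over all 12. Paralog ratios were compared with exact two-sided permutation tests in scipy 1.17.1, adjusted over 4 pairs. Copies were found with BLAST 2.17.0, and sequences come from GENCODE M21 transcripts. Scripts were tested on simulated data.

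The 10 genes, the gene lists and the alternatives were chosen with earlier results of these data known. Named beyond the 10 were 5 chaperone genes and the most abundant testis-specific and clustered histone genes. For the highest member of each histone class with a mean of at least 1 FPKM, the 3 genes with the highest Pearson's r were named.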

Additional observations from a re-analysis of the deposited data

How the results depend on the processing

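Between genotypes, 0 of the 10 genes passed in RNA-seq, RNC-seq and TE under any alternative run with 1 exception: with an unadjusted p under 0.05 and a fold change over 1.5, a limit from the study's supplement added after the data had been seen, 1 gene (H3f3b) passed in RNA-seq. For RNC-seq against RNA-seq, 5 to 7 genes passed in Igf2bp3+/- and 5 to 8 in Igf2bp3-/- under the other pseudocounts (1 and 0.01), filters, scalings and the length correction, against 6 in each as reported. The limits in the study's methods (unadjusted p under 0.05 and a log2 change over 1.5) left 2 and 1, and the 1.5-fold limit 6 and 7. Leaving out a replicate gave 5 to 6 in Igf2bp3+/- and 0 to 6 in Igf2bp3-/-, where fewer libraries entered. Without Igf2bp3-/- replicate 1, H1fx fell below the filter and was not tested.

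Libraries with the same number in RNA-seq and RNC-seq deviated together only in part (r = 0.205, -0.104 and 0.198 in Igf2bp3+/-; -0.0513, 0.165 and 0.126 in Igf2bp3-/-, over 12265 genes), so the numbers were not taken to pair them. With the replicate number as a block, 6 and 7 genes passed for RNC-seq against RNA-seq, H1fx being added in Igf2bp3-/-, 4 of all genes passed in RNA-seq and 0 in TE. Under the block the H3f3b/H3f3a ratio (0.36) and the H2afy2/H2afy ratio (-1.12) differed between assays with an adjusted exact permutation p of 0.0625 each, where 6 sign flips cannot give a raw p under 0.0312.

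H3f3b/H3f3a ranged from 0.32 to 0.41 without 1 replicate. H1fx/H1f0 passed with a pseudocount of 1 (-0.68, exact permutation adjusted p = 0.026), and between genotypes it ranged without 1 replicate from -0.33 to 0.27 in RNA-seq and from -2.16 to 0.20 in RNC-seq.

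Log2 changes that passed no test turned sign. In RNA-seq H2afx went to -0.0201 with the length trend removed, and without 1 library H2afy2 ranged from -0.19 to 0.12, H1f0 from -0.24 to 0.0363 and H1fx from -0.34 to 0.0328. In RNC-seq H2afx went to -0.0022 after quantile normalization, and without 1 library H2afx ranged from -0.0806 to 0.323, H2afz from -0.253 to 0.0901, H2afv from -0.0662 to 0.319, H2afj from -0.19 to 0.40, H3f3a from -0.0176 to 0.34, H3f3b from -0.0159 to 0.48, H1f0 from -0.0569 to 0.57 and H1fx from -1.59 to 0.14. In TE H2afx went to -0.10 (median centring) and -0.0081 (quantile), H2afy to -0.13, -0.0584 and, without the length trend, -0.16, and H1fx to 0.0135 with a pseudocount of 1; without 1 replicate H2afx ranged from -0.24 to 0.23, H2afv from -0.43 to 0.0326, H2afy from -0.19 to 0.18, H2afj from -0.38 to 0.17 and H1fx from -1.30 to 0.48. For RNC-seq against RNA-seq, H2afj ranged from -0.0705 to 0.20 and from -0.27 to 0.28. The cause was not tested.

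Of all genes, 52 passed in RNA-seq (31 with no filter, 80 without the length trend, 158 and 1109 under the log2 and fold limits of 1.5, 9 to 38 without 1 library), 22 in RNC-seq (2 with no filter, 13 and 12 after median centring and quantile normalization, 188 and 1102, 0 to 20) and 1 in TE (0 with a pseudocount of 1 or a filter of 1 FPKM, 2 with a pseudocount of 0.01, 196 and 1207, 0 to 2). For RNC-seq against RNA-seq, 7834 and 3880 passed (1633 and 585 under the log2 limit, 7709 and 5520 under the fold limit, 4885 to 6520 and 1 to 4040 without 1 replicate).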
